A study of Mus musculus with 34 samples.

Results

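The genes described here are 10 genes of the mammalian circadian clock, of 23109 genes measured by RNA-Seq in cultured mouse brown preadipocytes. They were chosen by name for their role in the clock. They are the activators *Arntl* and *Clock*, the repressors *Per2*, *Per3*, *Cry1*, and *Cry2*, the nuclear receptors *Nr1d1* and *Nr1d2*, and the output factors *Dbp* and *Tef*. Each gene was represented by the RefSeq transcript with the highest mean level. All 10 were above 0 in all 14 libraries, with between 23 and 2847 reads.

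Brown preadipocytes are precursors of the fat cells that burn lipid to make heat. The cells came from the interscapular brown fat of newborn pups and were immortalized with SV40T, a viral protein that keeps cells dividing. In the first experiment, cells carried a retrovirus for histone H3.3, either WT or with the K36M mutation, in which the lysine at position 36 of the histone tail is replaced by methionine, and were collected at D0, D2, and D7 of adipogenesis. In the second, the same 2 kinds of cells also carried retroviral PPARγ, the nuclear receptor that drives fat cell formation, and received DMSO (time 0 h in the labels) or its ligand rosiglitazone (Rosi) for 24 h. In the third, cells carried lentiviral control shRNA (Ctrl) or shRNA against *Nsd2* (Nsd2 KD), which encodes a methyltransferase for lysine 36 of histone H3, and were collected at D0 and D2. All 14 libraries were made from mRNA of cultured cells.

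The induction medium held 0.02 μM insulin, 1 nM thyroid hormone T3, 0.5 mM IBMX, 2 μg/ml dexamethasone, and 0.125 mM indomethacin for 2 days, starting from confluent cells at D0. From D2 on, the medium held serum, insulin, and T3 alone, so each comparison of D7 with D2 also spans the removal of dexamethasone, IBMX, and indomethacin. The cells with PPARγ were treated before they reached confluence. Dexamethasone activates the glucocorticoid receptor, and IBMX raises cyclic AMP. The sample labels call all 14 libraries GR-flox/flox preadipocytes on a C57BL/6J background and describe a control or a Cre vector that leaves or removes the glucocorticoid receptor, whereas the study's methods describe WT newborn mice. *Nr3c1*, which encodes that receptor, had between 10.1 and 30.9 RPKM in every library, so its transcript was present throughout. The labels give the day but not the hour of collection or the time since the last change of medium. A shift in the phase of a rhythm and a change in its mean level therefore cannot be told apart in any comparison here.

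Each condition had 1 library, so no difference has a replicate check and no p-value is given. The unit is RPKM, a read count corrected for both sequencing depth and the length of the transcript, which allows levels to be compared between genes. The libraries held between 12213559 and 24365867 mapped reads. Intervals in parentheses are 95% intervals of counting error only, from the reads recovered behind each RPKM, and do not cover variation between cultures. A gene was called over 2-fold when its RPKM ratio between 2 libraries exceeded 2, and the share of all genes past the same threshold is given as the background. As a check of the labels, *Nsd2* was lower in Nsd2 KD than in Ctrl cells, with 5.85 against 19.9 RPKM at D0 and 7.01 against 29 RPKM at D2. Fewer cells expressing a gene and less RNA per cell cannot be told apart in such bulk libraries.

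The clock is a transcriptional feedback loop. The proteins of *Arntl* (also called Bmal1) and *Clock* pair and bind E-box sequences to activate the *Per*, *Cry*, *Nr1d*, *Dbp*, and *Tef* genes, and the PER and CRY proteins then block that pair. The *Nr1d1* and *Nr1d2* products (REV-ERBα and REV-ERBβ) repress *Arntl* and *Clock* through ROR elements, and DBP and TEF activate genes through D-boxes. In cultured cells, serum, glucocorticoids, and cyclic AMP are known to reset this loop.

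Of the 13 promoter entries that RefSeq lists for 9 of the 10 genes, 6 from 5 genes held at least 1 match to the clock motifs in the 250 bases before the start of transcription. The windows of *Per3*, *Cry1*, *Cry2*, and *Nr1d1* are printed because they carry D-box, E-box, or E′-box letters and these genes differ in how they respond below. They are given 5′ to 3′ along each gene in the GRCm38.p6 build, in lower case, with motif matches in capitals.

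Per3 promoter, chr4:151044666-151044915, minus strand: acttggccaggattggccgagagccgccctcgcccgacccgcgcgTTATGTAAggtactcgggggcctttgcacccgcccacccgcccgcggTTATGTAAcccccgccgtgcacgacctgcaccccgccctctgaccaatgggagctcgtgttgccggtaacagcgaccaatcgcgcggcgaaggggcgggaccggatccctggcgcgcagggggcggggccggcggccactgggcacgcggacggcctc
Cry1 promoter, chr10:85185055-85185304, minus strand: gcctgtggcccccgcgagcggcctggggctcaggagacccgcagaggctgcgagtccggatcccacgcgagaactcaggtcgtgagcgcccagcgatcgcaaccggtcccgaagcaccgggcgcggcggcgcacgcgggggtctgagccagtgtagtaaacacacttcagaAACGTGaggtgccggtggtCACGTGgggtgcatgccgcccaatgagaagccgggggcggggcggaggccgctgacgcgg
Cry2 promoter, chr2:92434070-92434319, minus strand: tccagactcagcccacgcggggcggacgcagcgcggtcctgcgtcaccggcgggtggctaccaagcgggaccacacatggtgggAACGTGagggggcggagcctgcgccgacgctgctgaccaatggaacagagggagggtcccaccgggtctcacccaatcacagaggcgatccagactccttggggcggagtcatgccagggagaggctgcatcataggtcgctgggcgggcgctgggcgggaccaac
Nr1d1 promoter, chr11:98775378-98775627, minus strand: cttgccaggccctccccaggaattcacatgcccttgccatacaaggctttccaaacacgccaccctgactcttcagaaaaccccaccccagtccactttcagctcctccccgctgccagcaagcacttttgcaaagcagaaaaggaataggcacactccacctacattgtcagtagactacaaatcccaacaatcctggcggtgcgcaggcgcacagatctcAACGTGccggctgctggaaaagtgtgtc

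The *Per3* window held 2 copies of the D-box TTATGTAA, 205 and 158 bases before the start. This motif was found in 0.819% of 32851 promoter windows of the same length. The *Cry1* window held the E-box CACGTG at 60 bases and, on the opposite strand, the E′-box CACGTT at 79 bases, which reads AACGTG in the printed sequence. The same E′-box letters stood 166 bases before the start of *Cry2* and 28 bases before that of *Nr1d1*, also on the opposite strand. Both *Tef* entries held CACGTG, at 127 and 138 bases. Across all windows, 6.02% held CACGTG and 3.85% held CACGTT on either strand. The other motifs searched were the D-box TTACGTAA (0.113% of windows), the RORE core TAGGTCA (2.23%), the CRE TGACGTCA (1.55%), and the palindromic glucocorticoid response element (0.387%). None of these letters occurred in the members' windows, which says nothing of sites elsewhere. A match is a description of the sequence and not a measured binding site.

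Across the 14 libraries, the output gene *Dbp* and the receptor gene *Nr1d1* had the widest ranges of level. *Dbp* ranged 50.2-fold, from 0.68 RPKM in Ctrl cells at D2 to 34.1 RPKM in K36M cells at D7. *Nr1d1* ranged 20.3-fold, from 1.92 RPKM in Nsd2 KD cells at D2 to 39 RPKM in K36M cells at D7. The other 8 genes ranged between 3-fold (*Clock*) and 5.84-fold (*Cry1*). Of the 10 genes, 5 (*Per3*, *Nr1d1*, *Nr1d2*, *Dbp*, and *Tef*) had their highest level in the same library, K36M at D7. *Arntl* was highest in WT cells at D7, and *Clock* was highest in WT cells at D2. When libraries were put in order of level, few neighbours stood apart beyond counting error. Of 13 neighbouring pairs per gene, the number whose intervals did not overlap was 0 for *Arntl*, 2 for *Dbp*, *Per2*, and *Cry2*, and 5 for *Clock* and *Nr1d1*.

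**Figure D1:**
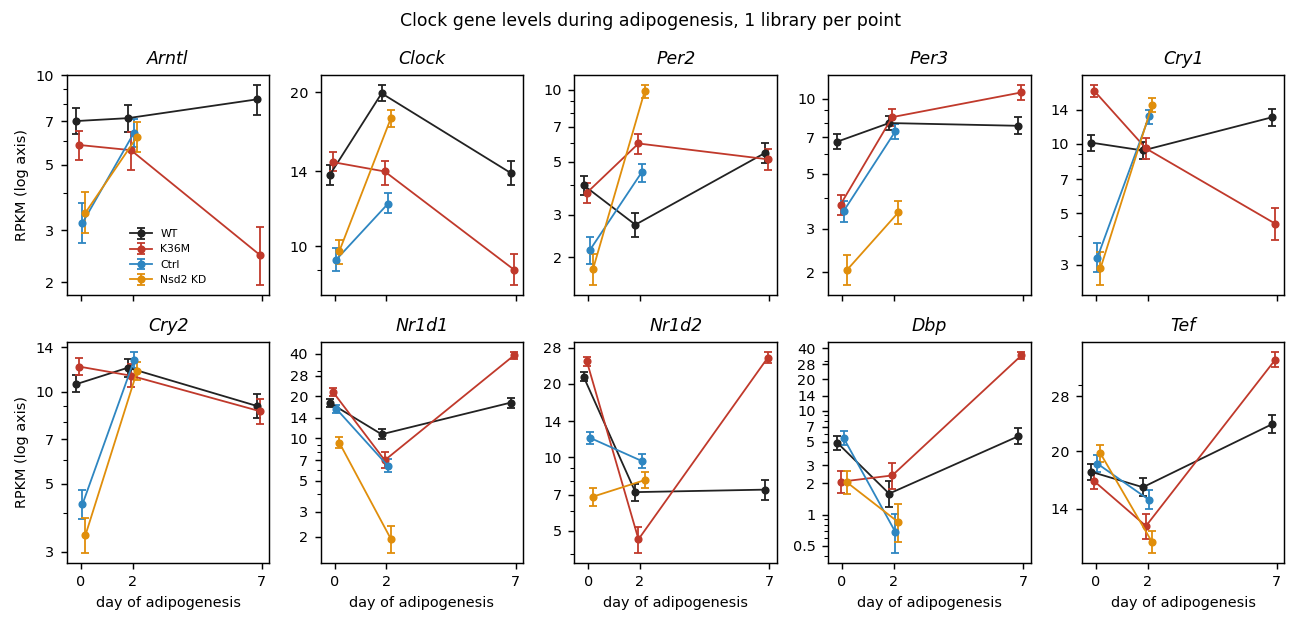
Level of each clock gene (RPKM, log axis that differs between panels) against day of adipogenesis in WT, K36M, Ctrl, and Nsd2 KD cells. Each point is 1 library and bars are 95% intervals of counting error. In K36M cells *Nr1d1* and *Tef* are lowest at D2 and highest at D7, and *Dbp* is low at D0 and D2 and highest at D7. *Nr1d2* of K36M cells is lowest at D2 and alike at D0 and D7, whereas *Arntl*, *Clock*, and *Cry1* are lowest at D7.

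The level of the transcripts during normal adipogenesis was examined first, in cells with WT H3.3. From D0 to D2, 2 of the 10 genes were over 2-fold different, both lower. Over all genes, 38.8% of those above 0 were past 2-fold in either direction, and 26.7% of those with at least 1 RPKM in 1 of the 2 libraries. The 2 genes were *Dbp* at -1.62 (-2.10 to -1.17) and *Nr1d2* at -1.56 (-1.70 to -1.44). The median log2 ratio of the 10 genes was -0.12, beside -0.01 for all genes of at least 1 RPKM.

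*Arntl* (NM_001243048, chr7:120350979-120457636, in mm9, as for the coordinates below) and *Clock* (NM_007715, chr5:76639992-76733817) encode the partners of the activator. In WT cells *Arntl* was at 7.01, 7.17, and 8.3 RPKM at D0, D2, and D7. These values differed little, with a log2 ratio of 0.03 (-0.18 to 0.24) from D0 to D2. *Clock* was at 13.8, 19.9, and 13.9 RPKM, so that only its D2 level was raised, by a log2 ratio of 0.53 (0.45 to 0.61). With K36M, *Arntl* was at 5.82, 5.59, and 2.47 RPKM. Its D7 level was 2.26-fold below its D2 level, a log2 ratio of -1.18 (-1.57 to -0.79). *Clock* in K36M cells was at 14.6, 14, and 9 RPKM and lacked the rise at D2.

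*Per2* (NM_011066, chr1:93312561-93355907) and *Per3* (NM_011067, chr4:150377761-150418774) encode period proteins that carry the negative limb of the loop. *Per2* in WT cells was at 3.99, 2.73, and 5.43 RPKM, lowest at D2. With K36M it was at 3.71, 5.96, and 5.12 RPKM, highest at D2. D2 was thus the lowest of the 3 days in WT cells and the highest in K36M cells. *Per3* in WT cells was at 6.72, 7.98, and 7.78 RPKM. K36M cells had a lower level at D0 and a higher one at D7, with 3.75, 8.43, and 10.6 RPKM. In K36M cells the D0 to D2 log2 ratio of *Per3* was 1.17 (0.99 to 1.35), the one increase past 2-fold among the 10 genes between these days in these cells.

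*Cry1* (NM_007771, chr10:84594447-84647799) and *Cry2* (NM_009963, chr2:92243803-92274200) encode cryptochromes, the main repressors of the CLOCK and BMAL1 pair. *Cry1* in WT cells was at 10.1, 9.34, and 13 RPKM. The K36M cells had 16.9, 9.53, and 4.51 RPKM, a lower level at each later day. *Cry2* stayed close together in both kinds of cells. It was at 10.6, 12, and 8.99 RPKM with WT H3.3 and at 12.1, 11.3, and 8.64 RPKM with K36M, and none of the ratios between these days passed 2-fold.

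*Nr1d1* (NM_145434, chr11:98629246-98636647) and *Nr1d2* (NM_011584, chr14:19036568-19071641) encode heme-binding nuclear receptors that repress transcription. *Nr1d1* in WT cells was at 17.9, 10.7, and 18 RPKM, lowest at D2. In K36M cells the dip was deeper, with 21.4, 6.99, and 39 RPKM. *Nr1d2* in WT cells was at 21.3, 7.19, and 7.36 RPKM, a fall at D2 with no return at D7. In K36M cells it was at 24.7, 4.61, and 25.5 RPKM, and its D7 level stood 5.54-fold above its D2 level.

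*Dbp* (NM_016974, chr7:52960458-52965525) and *Tef* (NM_017376, chr15:81632851-81657291) encode PAR bZIP transcription factors, which carry clock signals to genes of metabolism. *Dbp* in WT cells was at 4.9, 1.59, and 5.68 RPKM. The K36M values were 2.07, 2.38, and 34.1 RPKM. The last of these rested on 699 reads and was the highest *Dbp* level in any library. *Tef* was the more even of the pair, at 17.6, 16, and 23.6 RPKM in WT cells. In K36M cells it was at 16.6, 12.6, and 35.1 RPKM, again lowest at D2 and highest at D7.

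From D2 to D7 in WT cells, 1 of the 10 genes was over 2-fold different, against a background of 34.6% of genes above 0 and 20.8% of genes of at least 1 RPKM. This was *Dbp*, with a log2 ratio of 1.84 (1.36 to 2.33). *Per2* lay just below the threshold at 0.99 (0.78 to 1.21). From D0 to D7 in WT cells, *Nr1d2* alone was over 2-fold different at -1.53 (-1.68 to -1.38), against a background of 32.9% and 20.5%.

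In K36M cells, 3 of the 10 genes were over 2-fold different from D0 to D2, against a background of 36.1% of genes above 0 and 21.5% of genes of at least 1 RPKM. *Per3* was higher, though at 0.99 with a pseudocount of 1 RPKM added to both levels, whereas *Nr1d1* at -1.61 (-1.82 to -1.41) and *Nr1d2* at -2.42 (-2.61 to -2.24) were lower. From D2 to D7, 6 of the 10 genes were over 2-fold different, against a background of 36.4% and 22.7%. *Dbp* at 3.84 (3.43 to 4.29), *Nr1d1* at 2.48 (2.28 to 2.69), *Nr1d2* at 2.47 (2.28 to 2.66), and *Tef* at 1.48 (1.35 to 1.61) were higher. *Arntl* at -1.18 (-1.57 to -0.79) and *Cry1* at -1.08 (-1.35 to -0.81) were lower, and both fell under 2-fold with a pseudocount of 1, at -0.92 and -0.93. Of 9 genes of the glucocorticoid response, 5 were over 2-fold lower and none higher from D2 to D7 in K36M cells, and 1 was lower and 1 higher in WT cells. From D0 to D7, 5 of the 10 were over 2-fold different, against 34.6% and 22.3%. *Dbp*, *Per3*, and *Tef* were higher at D7, and *Arntl* and *Cry1* were lower.

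**Figure D2:**
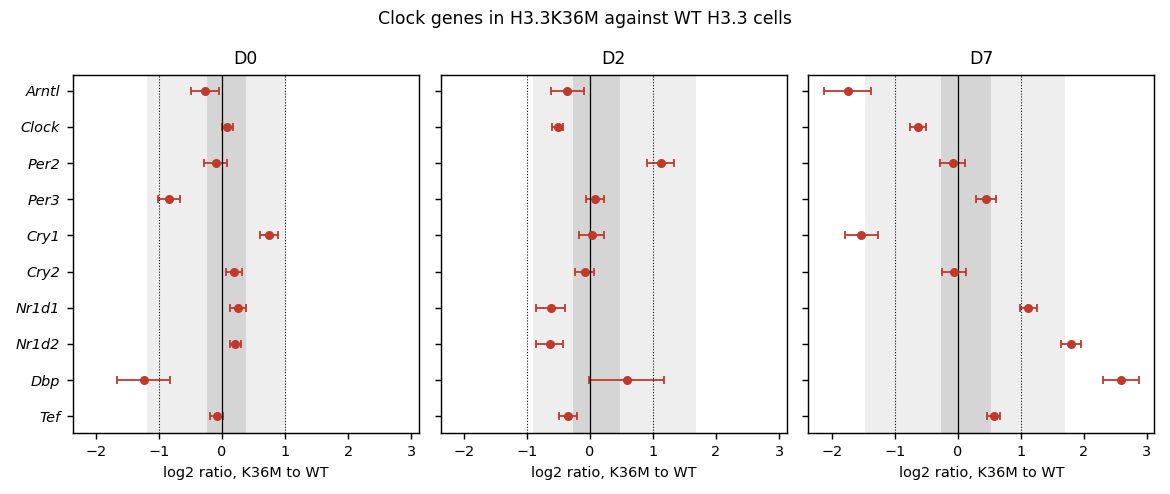
Log2 ratio of RPKM in K36M cells to that in WT cells for each clock gene at D0, D2, and D7, with 95% intervals of counting error and 1 library per condition. The dark and pale bands hold the middle 50% and 90% of all genes of at least 1 RPKM, and dotted lines mark 2-fold. At D7 *Dbp* and *Nr1d2* lie right of the pale band, and *Arntl* and *Cry1* lie left of it.

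H3.3K36M was then compared with WT H3.3 on each day. At D7, 5 of the 10 genes were over 2-fold different, against a background of 32.9% of genes above 0 and 20.2% of genes of at least 1 RPKM. The output gene *Dbp* was 6-fold higher in K36M cells, at 34.1 against 5.68 RPKM, a log2 ratio of 2.59 (2.31 to 2.87). *Nr1d2* was 3.47-fold higher at 25.5 against 7.36 RPKM, and *Nr1d1* was 2.17-fold higher at 39 against 18 RPKM. The activator gene *Arntl* was 3.35-fold lower, a log2 ratio of -1.75 (-2.12 to -1.38), and *Cry1* was 2.88-fold lower, a log2 ratio of -1.53 (-1.79 to -1.27). *Dbp*, *Nr1d1*, and *Nr1d2* were thus higher in K36M cells at D7, and *Arntl* and *Cry1* were lower.

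The interval of the *Nr1d1* ratio, 1.12 (0.98 to 1.26), reached just below 2-fold, and after median-ratio rescaling, in which each library is scaled by the median ratio of its genes to their mean over the libraries, *Nr1d1* was no longer past 2-fold, whereas those of *Dbp*, *Nr1d2*, *Arntl*, and *Cry1* lay wholly past it. The other 5 genes were within 2-fold at D7. *Tef* at 0.57 (0.47 to 0.67) and *Per3* at 0.45 (0.29 to 0.60) were higher, and *Clock* at -0.63 (-0.76 to -0.51) was lower. *Per2* at -0.08 (-0.29 to 0.12) and *Cry2* at -0.06 (-0.25 to 0.13) had intervals that held 0.

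Markers of the fat cell state moved with this D7 difference. Of 9 brown adipocyte markers, 6 reached 1 RPKM in 1 of the 2 libraries and all 6 were over 2-fold lower in K36M cells, and their summed level was 220.0 against 3414.0 RPKM. Of 5 preadipocyte markers, 2 were over 2-fold higher (*Thy1* and *Ly6a*), with a summed level of 555.0 against 264.0 RPKM. The part of these cell states in the clock gene levels was not tested. The heat-producing brown fat genes *Ucp1*, *Cidea*, and *Dio2* stayed at or below 0.194, 0.0973, and 0.0543 RPKM in all 14 libraries, so these defining markers of brown fat cells were near 0. Of 4 macrophage markers, *Cd14* alone reached 1 RPKM at D7 and was over 2-fold higher in K36M cells, at 3.61 against 1.5 RPKM, and the summed level of the 4 was 3.93 against 1.56 RPKM. Of 4 endothelial markers, *Tek* alone reached 1 RPKM and was over 2-fold higher, at 2.08 against 0.758 RPKM, and their sum was 2.47 against 1.07 RPKM. Over all 14 libraries *Ptprc* and *Adgre1*, which define leukocytes and macrophages, were at most at 0.0391 and 0.0759 RPKM and the endothelial gene *Cdh5* was at most at 0.0801 RPKM, whereas *Cd14* reached 7.97 RPKM and *Csf1r* 2.95 RPKM. Of 5 skeletal muscle markers, *Acta1* ranged from 0.237 to 67.5 RPKM, and it was not over 2-fold different at D7. The part of the *Cd14* and *Tek* differences was not tested. The summed level of 7 cell division genes was 310.0 RPKM in K36M and 306.0 RPKM in WT cells at D7.

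The exons of *Nr1d1* share 263 bases with *Thra* and those of *Dbp* share 491 bases with *Sphk2*, both on the opposite strand. Those of *Cry2* and *Tef* overlap opposite-strand lincRNAs by 295 and 193 bases. The study's methods describe double-stranded cDNA and a kit for DNA libraries, which does not mark strand, so reads of the shared bases cannot be told apart. *Thra*, a thyroid hormone receptor gene, was at 25.6 RPKM in K36M and 40.6 RPKM in WT cells at D7, lower where *Nr1d1* was higher. *Sphk2*, a sphingosine kinase gene, was at 14.7 and 11.8 RPKM and ranged from 5.9 to 14.7 RPKM over all libraries, against 0.68 to 34.1 RPKM for *Dbp*.

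At D0 the 2 kinds of cells differed over 2-fold in 1 of the 10 genes, against a background of 26.8% of genes above 0 and 11.4% of genes of at least 1 RPKM. This was again *Dbp*, but in the opposite direction, at 2.07 RPKM in K36M against 4.9 RPKM in WT cells, a log2 ratio of -1.24 (-1.67 to -0.83). *Cry1* was higher at 0.75 (0.60 to 0.89) and *Per3* lower at -0.84 (-1.01 to -0.67), both within 2-fold. At D2 the one gene over 2-fold different was *Per2*, at 5.96 against 2.73 RPKM, a log2 ratio of 1.13 (0.91 to 1.34) against a background of 32.1% and 15.6%. *Nr1d1* at -0.62 (-0.85 to -0.39), *Nr1d2* at -0.64 (-0.85 to -0.43), and *Clock* at -0.51 (-0.61 to -0.42) were lower at D2 within 2-fold. With a pseudocount of 1 both calls were lost, at -0.94 for *Dbp* at D0 and 0.90 for *Per2* at D2. No gene was past 2-fold on more than 1 of the 3 days in the same direction. Markers differed on these days too. At D2, 3 of 6 brown adipocyte markers of at least 1 RPKM were over 2-fold lower in K36M cells. Of 5 preadipocyte markers 3 were higher, and of 9 genes of the glucocorticoid response 3 were higher, as were *Cd14* and *Acta1*. At D0 *Adipoq*, *Fabp4*, *Pdgfra*, and *Ly6a* were over 2-fold lower and *Elovl3* and *Thy1* higher. The part of these differences in the clock gene levels was not tested.

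The change over time was compared between K36M and WT cells as a difference of log2 ratios. From D2 to D7 the largest positive differences were those of *Nr1d2* at 2.43 (2.18 to 2.69), *Dbp* at 2.01 (1.38 to 2.63), and *Nr1d1* at 1.74 (1.47 to 2.00). The largest negative differences were those of *Cry1* at -1.55 (-1.87 to -1.24), *Arntl* at -1.39 (-1.83 to -0.95), and *Per2* at -1.21 (-1.51 to -0.92). *Clock* at -0.12 (-0.27 to 0.04) and *Cry2* at 0.02 (-0.22 to 0.26) had intervals that held 0. From D0 to D2, *Dbp* at 1.82 (1.13 to 2.52) and *Per2* at 1.23 (0.95 to 1.52) differed most, and *Arntl* at -0.09 (-0.43 to 0.25) had an interval that held 0. These intervals cover the counting error of the 4 libraries in each difference.

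The induction of adipogenesis was then compared across the 4 populations that had both D0 and D2 libraries, WT, K36M, Ctrl, and Nsd2 KD. The WT and Ctrl populations are separate control cultures of separate experiments. Here 3 of the 10 genes differed in 1 direction beyond counting error in all 4. The share of all genes that did so was not counted, so whether this number is particular to clock genes is not known. *Nr1d1* was lower at D2 in 4 of 4, with log2 ratios from -2.29 (Nsd2 KD) to -0.73 (WT), and *Tef* was lower in 4 of 4, from -0.79 (Nsd2 KD) to -0.13 (WT). After median-ratio rescaling the *Tef* interval in WT cells, -0.17 to 0.04, held 0, which left 2 of the 3 genes beyond counting error in all 4. *Per3* was higher in 4 of 4, from 0.25 (WT) to 1.17 (K36M). *Dbp* was lower in 3 of 4, and its interval in K36M cells, 0.20 (-0.36 to 0.75), held 0.

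**Figure D3:**
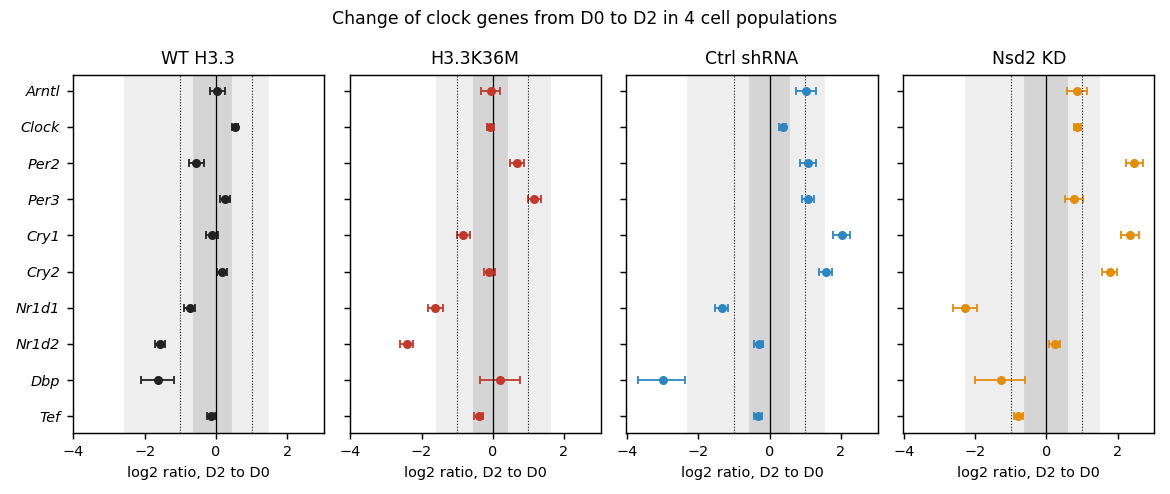
Log2 ratio of RPKM at D2 to that at D0 for each clock gene in WT, K36M, Ctrl, and Nsd2 KD cells, with 95% intervals of counting error and 1 library per condition. The dark and pale bands hold the middle 50% and 90% of all genes of at least 1 RPKM, and dotted lines mark 2-fold. *Nr1d1* and *Tef* lie left of 0 and *Per3* right of 0 in all 4 panels, whereas *Cry1* and *Cry2* lie past 2-fold in Ctrl and Nsd2 KD cells only.

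In Ctrl cells, 7 of the 10 genes were over 2-fold different from D0 to D2, against a background of 40.6% of genes above 0 and 27.4% of genes of at least 1 RPKM. *Cry1* went from 3.22 to 13.1 RPKM, a log2 ratio of 2.02 (1.79 to 2.26), and *Cry2* went from 4.28 to 12.7 RPKM, a log2 ratio of 1.57 (1.40 to 1.76). *Per2* went from 2.14 to 4.51 RPKM, *Per3* from 3.53 to 7.39 RPKM, and *Arntl* from 3.17 to 6.41 RPKM, each just past 2-fold, and all 3 fell under it with a pseudocount of 1. *Dbp* went down from 5.46 to 0.68 RPKM, a log2 ratio of -3.00 (-3.70 to -2.37), with 23 reads at D2. *Nr1d1* went down from 16.3 to 6.38 RPKM. All 4 *Per* and *Cry* genes and *Arntl* were thus higher at D2 while *Dbp* and *Nr1d1* were lower.

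The 2 control cultures differed in these genes. In WT cells *Cry1* had a D0 to D2 ratio of -0.11 (-0.28 to 0.06) and *Cry2* one of 0.17 (0.03 to 0.30), where Ctrl cells had 2.02 and 1.57. The levels at D2 were closer than those at D0, with *Cry2* at 12 RPKM in WT and 12.7 RPKM in Ctrl cells. At D0, *Cry2* was at 10.6 and 4.28 RPKM and *Cry1* at 10.1 and 3.22 RPKM, higher in WT cells. The WT and Ctrl cultures were not compared further, because vector, experiment, and collection cannot be told apart.

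Of 9 genes of the glucocorticoid response, 6 were over 2-fold higher at D2 in each population, led by *Zbtb16*, beside the background of 26.7%, 21.5%, 27.4%, and 28.6% of genes of at least 1 RPKM in either direction in WT, K36M, Ctrl, and Nsd2 KD cells. *Sgk1*, a kinase gene of the list, was over 2-fold lower in WT, Ctrl, and Nsd2 KD cells, and the median log2 ratios of the 9 genes were 1.71 in WT, 2.53 in K36M, 2.07 in Ctrl, and 1.74 in Nsd2 KD cells. *Per1*, the period gene outside the 10 and a known early target of that receptor, was over 2-fold higher in each. It went from 7.39 to 22.2 RPKM in WT, from 10.4 to 37.5 RPKM in K36M, from 6.36 to 38.3 RPKM in Ctrl, and from 6.98 to 56.8 RPKM in Nsd2 KD cells. *Per1* therefore moved the same way everywhere, whereas *Per2* was higher at D2 in 3 populations and lower in WT cells. The part of dexamethasone or IBMX in the clock gene levels was not tested.

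The same interval was examined in cells depleted of *Nsd2*. In Nsd2 KD cells, 5 of the 10 genes were over 2-fold different from D0 to D2, against a background of 41.4% of genes above 0 and 28.6% of genes of at least 1 RPKM. *Per2* went from 1.78 to 9.85 RPKM, a log2 ratio of 2.47 (2.24 to 2.71), *Cry1* from 2.89 to 14.7 RPKM, and *Cry2* from 3.4 to 11.7 RPKM. *Nr1d1* went down from 9.35 to 1.92 RPKM, a log2 ratio of -2.29 (-2.63 to -1.95), and *Dbp* from 2.05 to 0.843 RPKM, which was under 2-fold with a pseudocount of 1. *Arntl* was at 3.44 and 6.21 RPKM, *Clock* at 9.77 and 17.8 RPKM, and *Per3* at 2.04 and 3.49 RPKM, all higher within 2-fold. *Tef* was at 19.7 and 11.4 RPKM, and *Nr1d2* at 6.89 and 8.05 RPKM.

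Between Nsd2 KD and Ctrl cells at D2, 3 of the 10 genes were over 2-fold different, against a background of 30.4% of genes above 0 and 14.4% of genes of at least 1 RPKM. *Per2* was 2.19-fold higher in Nsd2 KD cells, at 9.85 against 4.51 RPKM, a log2 ratio of 1.13 (0.98 to 1.28). *Nr1d1* was 3.33-fold lower, at 1.92 against 6.38 RPKM, a log2 ratio of -1.73 (-2.09 to -1.39), and *Thra* was at 4.13 against 12.1 RPKM, lower as well. *Per3* was 2.12-fold lower, at 3.49 against 7.39 RPKM, a log2 ratio of -1.08 (-1.26 to -0.91). The 2 period genes thus lay on opposite sides, and with a pseudocount of 1 both were under 2-fold, at 0.98 and -0.90. The D0 to D2 response in Nsd2 KD cells minus that in Ctrl cells was 1.40 (1.08 to 1.71) for *Per2* and -0.29 (-0.59 to 0.00) for *Per3*, an interval that held 0. *Clock* at 0.55 (0.46 to 0.64) was higher within 2-fold, and *Arntl* at -0.05 (-0.28 to 0.19), *Cry2* at -0.13 (-0.26 to 0.01), and *Dbp* at 0.31 (-0.57 to 1.19) had intervals that held 0.

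At D0, 1 of the 10 genes was over 2-fold different between Nsd2 KD and Ctrl cells, against a background of 31.6% and 17.4%. *Dbp* was lower, at 2.05 against 5.46 RPKM, a log2 ratio of -1.41 (-1.86 to -0.98). *Nr1d1* at -0.80 (-0.97 to -0.63), *Nr1d2* at -0.80 (-0.95 to -0.65), and *Per3* at -0.79 (-1.03 to -0.55) were lower within 2-fold. In K36M against WT cells at D0, *Dbp* and *Per3* were lower as well. There *Nr1d1* at 0.26 (0.13 to 0.38) and *Nr1d2* at 0.21 (0.13 to 0.30) were higher. At D2 all 6 of the brown adipocyte markers with at least 1 RPKM were over 2-fold lower in Nsd2 KD cells, with a summed level of 58.2 against 1407.0 RPKM. Of the preadipocyte markers at D2, *Pdgfra* at 0.354 against 4.98 RPKM, *Thy1* at 0.816 against 10.8 RPKM, and *Ly6a* at 1.91 against 11.7 RPKM were lower, and *Dlk1* was higher at 27.9 against 3.51 RPKM. At D0 the same 3 preadipocyte markers were over 2-fold lower and *Dlk1* and *Cd34* higher, the cell division genes *Mki67*, *Ccnb1*, and *Ccna2* were lower, *Acta1* was lower, and *Cd14* was higher at 7.97 against 2.47 RPKM. Of the brown adipocyte markers at D0, *Fabp4* and *Cebpa* were lower and *Pparg* was higher. Their part in the clock gene levels was not tested.

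In cells with ectopic PPARγ, the libraries with Rosi were compared with those in DMSO. The labels give 24 h for the first and 0 h for the second. If these are times of collection, the ligand and 24 h of culture cannot be told apart. With WT H3.3, 9 of the 10 genes were higher with Rosi and *Nr1d1* was lower. The share of all genes that were higher was not counted. After median-ratio rescaling the intervals of *Cry1* (-0.06 to 0.40), *Per2* (-0.06 to 0.42), and *Tef* (-0.05 to 0.16) held 0. The median log2 ratio of the 10 was 0.59, beside 0.06 for all genes of at least 1 RPKM. Only 1 of the 10 was past 2-fold, against a background of 33.1% of genes above 0 and 15.0% of genes of at least 1 RPKM. That gene was *Per3*, which went from 2.42 to 7.9 RPKM, a log2 ratio of 1.71 (1.52 to 1.90). With K36M it was at 2.36 and 2.43 RPKM. The difference between the 2 responses was -1.67 (-1.99 to -1.35) on the log2 scale.

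With K36M, 2 of the 10 genes were over 2-fold different with Rosi, both higher, against a background of 33.2% and 16.8%. *Cry1* went from 4.94 to 13.1 RPKM, a log2 ratio of 1.40 (1.21 to 1.60), whereas with WT H3.3 it was at 5.14 and 6.07 RPKM. *Cry2* went from 4.22 to 10.3 RPKM, and with WT H3.3 from 5.39 to 9.79 RPKM. The difference of responses was 1.16 (0.87 to 1.46) for *Cry1* and 0.43 (0.17 to 0.68) for *Cry2*. *Cry2* was thus higher with Rosi in both kinds of cells, and the *Cry1* response was the larger one with K36M.

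*Dbp* was at 4.16 and 6.52 RPKM with WT H3.3 and at 2.59 and 1.79 RPKM with K36M, in DMSO and Rosi. *Tef* was at 18.5 and 20.1 RPKM with WT H3.3 and at 14.1 and 9.29 RPKM with K36M. Both output genes were higher with Rosi in WT and lower in K36M cells, by differences of responses of -1.18 (-1.80 to -0.56) and -0.72 (-0.90 to -0.55), though the interval for *Dbp* in K36M cells, -0.54 (-1.11 to 0.01), held 0, and that for *Tef* in WT cells held 0 after median-ratio rescaling (-0.05 to 0.16). The activator genes moved the same way in both kinds of cells. *Arntl* was at 2.76 and 4.16 RPKM with WT H3.3 and at 1.82 and 3.5 RPKM with K36M, and *Clock* at 7.11 and 10.8 RPKM and at 6.65 and 8.31 RPKM. *Nr1d2* was higher with Rosi in both, by 0.59 (0.45 to 0.74) and 0.68 (0.51 to 0.85), whereas *Nr1d1* was at -0.26 (-0.40 to -0.12) and -0.13 (-0.30 to 0.05). *Per2* was at 2.39 and 2.84 RPKM with WT H3.3 and at 1.82 and 2.33 RPKM with K36M.

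**Figure D4:**
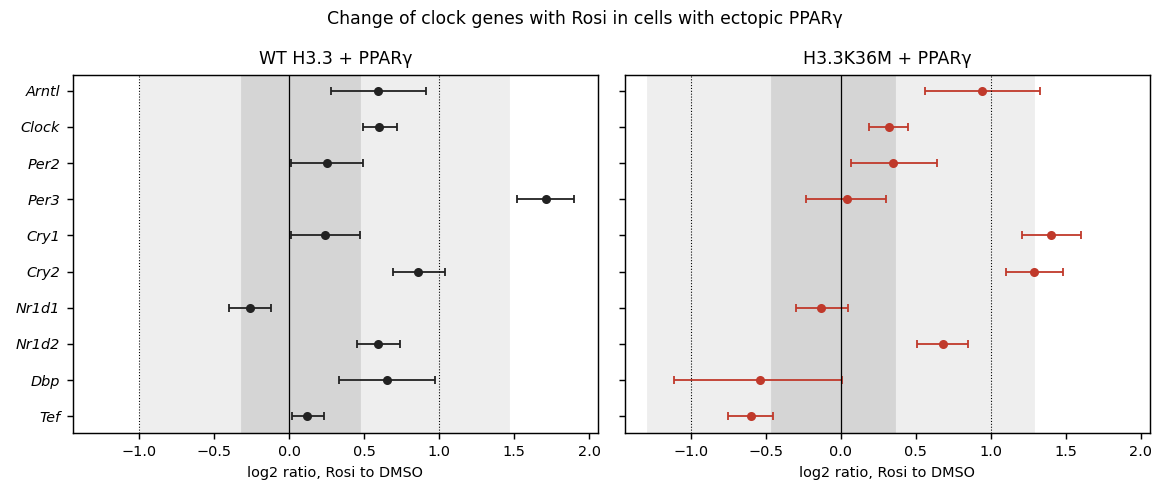
Log2 ratio of RPKM with Rosi to that with DMSO for each clock gene in PPARγ cells with WT H3.3 or H3.3K36M, with 95% intervals of counting error and 1 library per condition. The dark and pale bands hold the middle 50% and 90% of all genes of at least 1 RPKM, and dotted lines mark 2-fold. *Per3* lies right of the pale band with WT H3.3 and at 0 with K36M, and *Cry1* lies past 2-fold only with K36M.

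Between K36M and WT cells with PPARγ in DMSO, none of the 10 genes was past 2-fold, against a background of 32.2% of genes above 0 and 8.20% of genes of at least 1 RPKM. All 10 ratios were below 0, with a median of -0.39, beside -0.02 for all genes of at least 1 RPKM. They ran from -0.68 (-1.06 to -0.32) for *Dbp* to -0.03 (-0.26 to 0.19) for *Per3*, and 7 of the 10 intervals excluded 0. The shares of all genes below 0, or with an interval that excluded 0, were not counted. With Rosi, 4 were past 2-fold, against a background of 41.1% and 19.1%. *Cry1* was higher at 1.11 (0.90 to 1.32), or 0.99 with a pseudocount of 1, and *Dbp* at -1.87 (-2.41 to -1.35), *Per3* at -1.70 (-1.94 to -1.47), and *Tef* at -1.11 (-1.26 to -0.97) were lower. The direction for *Dbp*, *Per3*, *Tef*, and *Cry1* was thus opposite to that in K36M against WT cells at D7 of adipogenesis. It was opposite too for *Nr1d1* at -0.35 (-0.54 to -0.17) and *Nr1d2* at -0.39 (-0.55 to -0.24) with Rosi. *Clock*, *Arntl*, and *Per2* were below 0 in both, and *Cry2* had intervals that held 0 in both. Fat cell markers moved with these comparisons. Of the 9 brown adipocyte markers, 4 were over 2-fold higher with Rosi in each kind of cells, with a summed level that went from 213.0 to 3029.0 RPKM in WT and from 150.0 to 1223.0 RPKM in K36M cells. Of the 5 preadipocyte markers, 2 were over 2-fold lower with Rosi in WT and 3 in K36M cells. Between K36M and WT cells, 3 brown adipocyte markers were lower in DMSO, and 4 were lower and 1 higher with Rosi, where the cell division gene *Mki67* was lower too. *Csf1r* was lower with Rosi in both kinds of cells and *Cd14* in K36M cells, and *Acta1* differed over 2-fold between the 2 kinds of cells with either treatment, with the higher level in K36M cells. The part of these cell states in the clock gene levels was not tested. The 2 PPARγ libraries with K36M had 20121 and 19981 genes above 0, against 15868 to 18385 in the other 12 libraries, and the part of that breadth in these ratios was not tested.

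Over the 17 comparisons, the share of the 10 genes past 2-fold was above both background shares in 5, below both in 8, and between them in 4. The 5 were K36M cells at D7 against D2, against D0, and against WT cells at D7, which share the K36M library at D7, and D2 against D0 in Ctrl and in Nsd2 KD cells. In the other 12 comparisons the count of clock genes was no higher than that of genes at large under at least 1 of the 2 filters.

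The balance between pairs of clock genes was followed as a ratio of levels within each library. The ratio of *Nr1d1* to its target *Arntl* was 2.55 (2.27 to 2.87), 1.5 (1.31 to 1.72), and 2.17 (1.88 to 2.5) in WT cells at D0, D2, and D7. In K36M cells it was 3.68 (3.23 to 4.19), 1.25 (1.03 to 1.53), and 15.8 (12.6 to 20.1). It went from 5.13 (4.33 to 6.1) to 0.995 (0.854 to 1.16) in Ctrl and from 2.71 (2.25 to 3.28) to 0.309 (0.241 to 0.393) in Nsd2 KD cells. It was thus lower at D2 than at D0 in all 4 populations. With PPARγ it went from 6.56 (5.54 to 7.81) in DMSO to 3.63 (3.08 to 4.31) with Rosi in WT cells and from 7.1 (5.84 to 8.7) to 3.38 (2.74 to 4.2) in K36M cells.

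The ratio of *Dbp* to *Cry1* was lowest at 0.0519 (0.0327 to 0.0785) in Ctrl cells at D2 and highest at 7.57 (6.38 to 9.02) in K36M cells at D7. In WT cells it was 0.487 (0.41 to 0.577), 0.17 (0.125 to 0.227), and 0.438 (0.358 to 0.533) at D0, D2, and D7. The K36M library at D7 stood apart from the other 13 in this ratio, since the next highest was 1.69 (1.38 to 2.09) in Ctrl cells at D0. That follows from the levels given above, with *Dbp* at 34.1 against 5.68 RPKM and *Cry1* at 4.51 against 13 RPKM in K36M and WT cells at D7. The ratio is therefore not separate evidence.

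**Figure D5:**
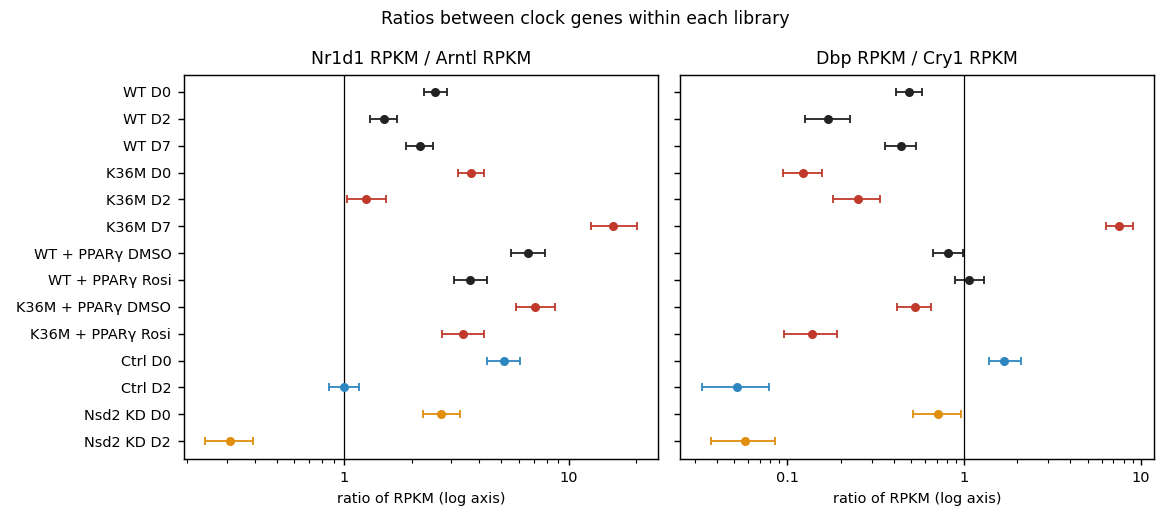
Ratio of *Nr1d1* to *Arntl* RPKM and of *Dbp* to *Cry1* RPKM within each of the 14 libraries (log axes), with 95% intervals of counting error. The K36M library at D7 is highest in both panels, at 15.8 and 7.57, and the Nsd2 KD and Ctrl libraries at D2 are lowest, at 0.309 and 0.0519.

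The other 19 clock genes, which were listed with results of these data known, gave a wider view of the loop. From D0 to D2, 3 of 16 with at least 1 RPKM were over 2-fold higher and 3 lower in WT cells, 2 of 14 higher and 2 lower in K36M cells, 5 of 14 higher and 1 lower in Ctrl cells, and 5 of 15 higher and 1 lower in Nsd2 KD cells. Over all genes of at least 1 RPKM the shares past 2-fold in either direction were the 26.7%, 21.5%, 27.4%, and 28.6% given above. *Nfil3*, which encodes a repressor that competes with DBP and TEF for D-boxes, was at 37.2, 81.4, and 39.3 RPKM in WT and at 33, 64.1, and 19.1 RPKM in K36M cells. It was thus high at D2, where *Dbp* was low in WT cells. *Ciart*, which encodes a repressor of the CLOCK and BMAL1 pair, was at 11.1 and 4.05 RPKM in WT, 18.2 and 2.92 RPKM in K36M, 1.2 and 4.77 RPKM in Ctrl, and 0.617 and 7.39 RPKM in Nsd2 KD cells. Its direction from D0 to D2 was opposite between the 2 experiments. *Bhlhe41*, which encodes the repressor DEC2, went from 6.35 to 1.69 RPKM in WT, from 11.1 to 3.09 RPKM in K36M, and from 12.2 to 2.55 RPKM in Nsd2 KD cells, and was at 2.32 and 1.78 RPKM in Ctrl cells.

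Between K36M and WT cells at D7, 1 of 18 such genes was over 2-fold higher (*Bhlhe41*) and 5 were lower, among them *Npas2*, beside 20.2% of all genes of at least 1 RPKM in either direction. *Npas2*, which encodes a partner of BMAL1 that can stand in for CLOCK, was at 0.255 against 2.35 RPKM, a log2 ratio of -3.21 (-4.16 to -2.38). Of the 4 listed output genes, *Nampt*, which encodes the rate-limiting enzyme of NAD+ salvage, was over 2-fold lower at 37.7 against 114 RPKM. With Rosi, *Ciart* went from 1.12 to 14.5 RPKM in K36M cells and from 1.22 to 3.6 RPKM in WT cells, and 3 of 14 such genes were over 2-fold higher and none lower in WT cells, beside 15.0% of all such genes in either direction.

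The genes whose pattern over the 14 libraries was most like that of 4 members were found by Pearson's r of log2(RPKM + 1) over 11899 genes with a mean of at least 1 RPKM. The libraries share 1 cell source and 3 experiments, so r is a description. Those nearest to *Arntl* were *Ldlrad3* (0.94), *Eif4g3* (0.94), and *Gpr63* (0.91), and *Clock* ranked 7 (0.89). Without the K36M library at D7 the order changed, since *Acvr2a* (0.97) and *Elf2* (0.95) came first, *Gpr63* went to rank 92, and *Clock* to rank 110 (0.90). Those nearest to *Per2* were *6430548M08Rik* (0.91), *Orai1* (0.88), and *Rbl1* (0.87). Those nearest to *Nr1d1* were *Dcps* (0.94), *Fbxo6* (0.93), and *Bgn* (0.93). Those nearest to *Dbp* were *Rab3il1* (0.96), *C1rl* (0.95), and *Nfkbia* (0.94), and without that library *Tnip1* (0.96) and *Tnfaip3* (0.95) came first. For *Per2* the nearest 3 genes were the same without it, and for *Nr1d1* *Anapc15* took the place of *Fbxo6*. Within the 10 genes, *Dbp* was most like *Tef* (0.83) and *Nr1d1* (0.78), and *Arntl* and *Dbp* had an r of -0.38. Without the K36M library at D7, r of *Dbp* was 0.66 with *Tef* and 0.72 with *Nr1d1*, and that of *Arntl* with *Dbp* was -0.16.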

How the data were processed

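RNA-Seq of 14 libraries, 1 per condition, was used, of 34 samples, and the ChIP-Seq samples were not analysed here. Each deposited file holds RPKM for 29082 RefSeq transcripts. The labels name CASAVA 1.8.2, SICER, and mm9 in the submitters' processing notes, and the RNA mapper and counter are not given in the sources used here. Symbols were found for 28436 transcripts (97.8%) in the RefSeq table of GRCm38.p6, and coordinates are from GENCODE M1 on mm9. Each gene was its transcript with the highest mean RPKM, which gave 23109 genes. Whole reads were recovered from the RPKM for 2696 of 2697 transcripts checked (tolerance 0.01 reads), and a count of 0 allows up to 3 reads.

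Calls were RPKM ratios over 2-fold with RPKM above 0 in at least 1 library and no pseudocount, in 17 comparisons. No test across conditions was made. Ratios have 95% Clopper-Pearson intervals, which were tested on simulated data (numpy 2.4.6, pandas 2.3.3, scipy 1.17.1). Differences of ratios have delta-method intervals, which were not tested in that way. Ratios of all 10 members were computed in every comparison. Members past 2-fold are named in each, and of the others only some are named. Of the other clock and output genes, counts are given and at most 4 per comparison named by size of change (1 gene that this rule names is not reported here), and *Nsd2*, *Nr3c1*, and the 3 genes most like *Arntl*, *Per2*, *Nr1d1*, and *Dbp* are named. Gene levels shown for *Per1*, *Nfil3*, *Ciart*, *Bhlhe41*, *Npas2*, *Thra*, and *Sphk2* in further libraries were chosen after their values were seen. The ratios between members within a library were not among the planned results. The members and gene lists were chosen with earlier results of these data known. Of 5 macrophage markers, 4 were matched. Alternatives were a pseudocount of 1, a minimum of 1 RPKM, median-ratio rescaling, and summed transcripts.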

Additional observations from a re-analysis of the deposited data

Results flagged for a closer look

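The responses of 4 clock genes ran in opposite directions in the compared populations beyond counting error. With 1 library per condition, none of these differences was tested across cultures. *Per2* was higher from D0 to D2 in K36M cells, at 0.68 (0.49 to 0.88), and lower in WT cells, at -0.55 (-0.76 to -0.34), a difference of 1.23 on the log2 scale. From D2 to D7 its directions were exchanged, at -0.22 (-0.42 to -0.02) in K36M and 0.99 (0.78 to 1.21) in WT cells, a difference of -1.21. *Cry1* was lower from D2 to D7 in K36M cells, at -1.08 (-1.35 to -0.81), and higher in WT cells, at 0.47 (0.30 to 0.65), a difference of -1.55. *Tef* was lower with Rosi in K36M cells with PPARγ, at -0.60 (-0.75 to -0.45), and higher in WT cells with PPARγ, at 0.12 (0.02 to 0.23), a difference of -0.72. After median-ratio rescaling the interval in WT cells, -0.05 to 0.16, held 0, so the opposite direction was then within counting error. *Nr1d2* was higher from D0 to D2 in Nsd2 KD cells, at 0.23 (0.06 to 0.39), and lower in Ctrl cells, at -0.31 (-0.44 to -0.19), a difference of 0.54.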

How the results depend on the processing

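Of the 170 log2 ratios of the 10 genes in 17 comparisons, none that was called over 2-fold changed direction under any of the 4 alternatives. A pseudocount of 1 moved 20 of them toward 0 beyond their counting interval. With it, 13 of the 48 calls over 2-fold were lost. The number of the 10 genes over 2-fold went from 1 to 0 between K36M and WT cells at D0 and at D2, from 7 to 4 from D0 to D2 in Ctrl cells, from 3 to 1 between Nsd2 KD and Ctrl cells at D2, and from 6 to 4 from D2 to D7 in K36M cells. Single calls were also lost for *Per3* from D0 to D2 and *Arntl* from D0 to D7 in K36M cells, *Dbp* from D0 to D2 in Nsd2 KD cells, and *Cry1* between K36M and WT cells with Rosi. Median-ratio rescaling moved the *Tef* ratio of K36M to WT cells at D7 from 0.57 to 0.45, lost 2 of the 48 calls (*Nr1d1* there and *Arntl* from D0 to D2 in Ctrl cells), changed the sign of 3 ratios near 0, and brought 0 into 6 of 132 intervals that had excluded it, and its shift was at most 0.12 in size (-0.12 at D7 between K36M and WT cells). A minimum of 1 RPKM and summed transcripts moved no ratio, and the first left out *Dbp* between Nsd2 KD and Ctrl cells at D2, where both libraries were below 1 RPKM. Summed transcripts count shared reads more than once. Leaving out the K36M library at D7 was chosen after seeing the data. No paired analysis was possible because each condition had 1 library and the labels give no replicate numbers. Depth limited *Dbp* most, with 23 reads in Ctrl cells at D2.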
